A study of Homo sapiens with 30 samples.

Results

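SH-EP is an established human neuroblastoma (NB) cell line of mesenchymal identity in which MYCN is neither amplified nor expressed. The comparison described here is that of parental SH-EP cells, which carry no exogenous MYC gene, after 6 hours in 1 μM CYC065, an inhibitor of CDK2 and CDK9, with the same cells after 6 hours in DMSO, the vehicle. Its members are the 3 CYC065 and 3 DMSO libraries that the sample labels give to parental SH-EP, 6 of the 30 RNA-Seq libraries of the series. The other 24 come from 4 stable SH-EP lines with a retroviral MYCN transgene under an exogenous promoter, of which 1 is WT and the others carry the MYCN changes S62A, T58A, or both, and had the same pair of treatments. The sources used here do not say whether each line is 1 clone. All lines were grown in DMEM with serum. The value of a gene is its FPKM (fragments mapped to the gene per kilobase of transcript, relative to all mapped fragments of the library), either as deposited or scaled to ERCC spike-ins, synthetic RNAs that the study added in proportion to cell number. A gene was tested if its mean over the 30 libraries was at least 1 FPKM, which 11575 of 26228 listed genes reached, and it is said to have risen or fallen where the Benjamini-Hochberg adjusted p of limma was under 0.05.

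CDK9 pairs with a T-type cyclin in P-TEFb, the kinase that releases paused RNA polymerase II into productive elongation by phosphorylating the polymerase tail and the pausing factors DSIF and NELF. In resting cells much of P-TEFb is held inactive by HEXIM proteins on the 7SK RNA. When elongation is blocked, no new mRNA replaces what is degraded, so transcripts with a short half-life run down before stable ones. CDK2, the other target of CYC065, works with cyclins E and A at the entry into and passage through S phase.

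The labels were checked on markers. MYCN was listed at 0 FPKM in all 6 libraries. All 8 mesenchymal NB markers passed the filter, with a summed level of 3802 to 3980 FPKM in DMSO and 6718 to 6737 FPKM in CYC065, whereas 0 of 8 adrenergic NB markers passed, with a summed level under 1.72 FPKM in every library and 5 of the 8 at 0 throughout. Blood markers (3 of 6 at 0 throughout) and endothelial markers (1 of 4) each summed to less than 0.5 FPKM in every library. Epithelial markers (2 of 5 at 0 throughout) summed to 8.15 to 8.48 FPKM in DMSO and 10.8 to 14.3 FPKM in CYC065, nearly all of it KRT19, and their part in any result was not tested. Glial and melanocyte markers (1 of 6 at 0 throughout) summed to 7.52 to 8.92 FPKM in DMSO and 11.4 to 14.9 FPKM in CYC065. FPKM do not give the read depth, which is unknown. From the low FPKM values, the depth of the DMSO libraries was 1, 0.987, and 0.763 relative to the deepest SH-EP library and that of the CYC065 libraries 0.522, 0.572, and 0.329, so the CYC065 libraries were the shallower ones and the third was the shallowest. No pair of libraries held identical values, and nothing says that replicates came from separate cultures, so the p-values measure only the spread between these samples.

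CYC065 lowered the spike-in scaled level of most genes in SH-EP. Of the 11575 genes tested, 8762 (75.7%) fell, 105 (0.907%) rose, and 2708 did not pass the threshold, so 76.6% changed in either direction. All 3 CYC065 libraries lay below all 3 DMSO libraries for 86.8% of genes. The median change was -1.06 on the log2 scale, a 2.09-fold drop, with quartiles of -1.93 and -0.51. There were 2640 genes (22.8%) that fell at least 4-fold and 316 that fell at least 16-fold. Each CYC065 library lay below the DMSO mean, with median changes of -0.97, -0.95, and -1.26, and the third, the shallowest, lay lowest. The summed FPKM of the deposited values was 1.73-fold higher in CYC065 than in DMSO, and after scaling the ratio was 0.730. On FPKM as deposited, the same genes split into 4944 (42.7%) that rose and 3883 (33.5%) that fell, with a median of 0.15, and 76.3% changed in either direction. The groups were apart with CYC065 higher for 46.2% and lower for 35.5% of genes on that scale. With libraries centred on their own median, 48% rose and 29.7% fell, together 77.7%. The direction of 2728 genes depended on the scale, since they fell after spike-in scaling and rose as deposited. On both scales 104 genes rose and 3883 fell. The spike-ins took 1.99% to 2.29% of the summed FPKM in DMSO and 2.70% to 3.78% in CYC065. As the spike-ins followed the cell number, a scaled value is relative to the cells counted, and in bulk RNA fewer cells of a type and less RNA per cell cannot be told apart.

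**Figure D1:**
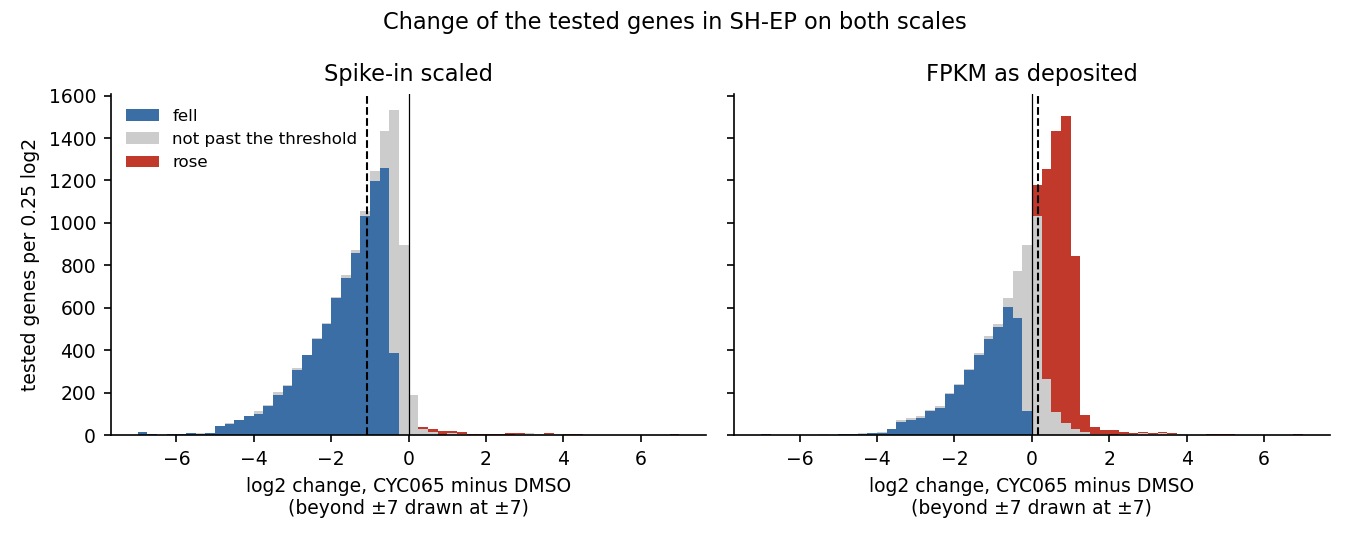
Number of tested genes (vertical axis) by their log2 change, CYC065 minus DMSO, in parental SH-EP (horizontal axis), with spike-in scaled values on the left and FPKM as deposited on the right, and with genes past the threshold in blue (fell) or red (rose). The dashed lines are the medians, -1.06 and 0.15, and the 105 genes that rose after scaling form the thin tail on the right of the left panel.

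Of the 105 genes that rose, 81 were protein coding and 9 were long noncoding RNAs, and 9 had symbols of microRNA genes, microRNA host genes, or snoRNAs. In DMSO 48 of them had a mean under 1 FPKM and 22 a mean of 10 FPKM or more. A gene under 1 FPKM in DMSO could pass the filter only through groups where it was higher, so nothing is read from these levels. In 97 of them the scaled CYC065 libraries all lay above the DMSO libraries, which held for 1.04% of all tested genes. The call was kept in each of the 6 fits that left out 1 SH-EP library for 76 of the 105, and without the shallowest CYC065 library 99 of the 105 kept it.

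Immediate early genes were the list with the most members among them. These genes encode transcription factors (TFs) and regulators that cells switch on within minutes of a stimulus without new protein synthesis, and their mRNAs are short-lived. Of 24 tested members 12 (50%) rose and 6 (25%) fell, against 0.907% and 75.7% of all genes. The list median was 0.28 against -1.06 over all genes. The count of risen members was 9 to 11 without any 1 of the libraries, and JUN and KLF10, at adjusted p-values of 0.0488 and 0.0481, were lost most often. JUNB, an AP-1 subunit at chr19:12902300-12904129 (GRCh37, plus strand, a gene of 1 exon), was at 28.4, 24.9, and 25.6 FPKM in DMSO and at 529, 484, and 492 FPKM in CYC065. The lowest CYC065 library was far above the highest DMSO library, and the scaled change was 3.0 in log2 (SE 0.20, adjusted p = 7.19e-13). IER2, a nuclear regulator encoded at chr19:13261225-13265725, went from 36.7, 33.3, and 32.8 FPKM to 345, 337, and 336 FPKM, a scaled change of 2.06 (SE 0.20, adjusted p = 4.98e-10). Both genes were thus already well expressed in DMSO. IER3, a regulator of apoptosis and of ERK signalling at chr6:30710976-30712325, was at 0, 0.0788, and 0.102 FPKM in DMSO and at 22.9, 17, and 22.9 FPKM in CYC065. It was near the floor before treatment and in the range of an ordinary expressed gene after it, and its scaled change of 6.83 (SE 0.42, adjusted p = 1.27e-13) depends on the pseudocount of 0.1. With a DMSO level under 1 FPKM, IER3 passed the filter only through groups where it was higher.

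FOS, KLF6, and EGR1 had smaller changes than these 3 genes. FOS was at 9.72, 11.1, and 9.39 FPKM in DMSO and 59.9, 60.6, and 55.6 FPKM in CYC065, and its scaled change was 1.29 (SE 0.21, adjusted p = 4.8e-06). KLF6, a tumor suppressor of the Krüppel-like family, went from 25.6, 24.1, and 24.5 FPKM to 167, 163, and 174 FPKM, with a scaled change of 1.51 (adjusted p = 3.24e-08). EGR1, the growth factor-induced zinc finger TF, went from 19.7, 17.3, and 18.6 FPKM to 95.4, 93.9, and 83.7 FPKM, a scaled change of 1.04 (adjusted p = 4.64e-05). None of the 3 genes had overlapping groups on either scale. FOSB, BTG2, IER5, and ATF3 rose by 1.48, 1.59, 1.03, and 0.64. JUN rose by 0.41 from 22.9, 20.8, and 20.5 FPKM to 66.7, 65.3, and 71.4 FPKM, but its call was lost in each of the 6 leave-one-out fits. ATF3 lost it without the second DMSO library, at an adjusted p of 0.0572. The 6 members that fell were KLF4 (-2.24), JUND (-1.73), SRF (-1.29), NR4A1 (-1.20), ZFP36 (-1.13), and NR4A2 (-1.0). SRF is the TF that binds CArG boxes in the promoters of many genes of this class, and it was at 17.8 FPKM in DMSO and 17.2 FPKM in CYC065 on average as deposited. FOSL1, the AP-1 subunit with the highest DMSO level of the list at 92.7, 101, and 86.0 FPKM, did not pass after scaling (-0.21) and rose by 1.04 as deposited.

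The promoters of 3 genes are printed because they show the elements searched for in the genes that moved. RefSeq promoters of GRCh38.p14 were available for 71 of the 96 risen genes that are not small RNAs, and the 250 bases before each start site were searched on both strands for TATAAA (the core bound by TBP), the CArG box, TGACTCA (an AP-1 site), CACGTG (an E-box), and GGAATG (the core of the TEAD motif). Capitals mark the TATA box in JUNB (chr19:12791386-12791485, plus strand) and in PPP1R10 (chr6:30617244-30617343, minus strand), a gene that fell, and both CArG boxes in EGR1 (chr5:138465319-138465478, plus strand).
JUNB: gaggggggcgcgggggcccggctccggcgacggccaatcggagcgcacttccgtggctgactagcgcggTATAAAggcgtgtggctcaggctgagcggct
EGR1: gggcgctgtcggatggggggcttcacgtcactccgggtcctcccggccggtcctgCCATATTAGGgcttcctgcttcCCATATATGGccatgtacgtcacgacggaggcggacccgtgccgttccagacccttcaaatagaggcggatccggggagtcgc
PPP1R10: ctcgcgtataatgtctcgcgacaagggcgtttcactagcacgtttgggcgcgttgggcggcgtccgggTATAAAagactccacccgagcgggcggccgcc

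TATAAA starts 31 bases before the start site in JUNB and 32 bases before it in PPP1R10, whose mRNA fell by 6.12, so genes with the same element at the same place lay at both ends of the response. The motif was in 15 of the 71 promoters of risen genes (21.1%), in 18 of 239 of genes that fell at least 16-fold (7.53%), in 7.81% of those of all tested genes, and in 13% of all promoters in the table. Among immediate early genes it was in 4 of 10 promoters of those that rose and in 1 of 10 of the others. The CArG box was in 1 of 10 of each, against 1.44% of all promoters, and TGACTCA was in 5 of 71 risen promoters (7.04%) against 3.96% of those of tested genes. These are letters in a window of 250 bases and not sites, and nothing was tested on them. EGR1 was picked for printing after its value was seen.

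**Figure D2:**
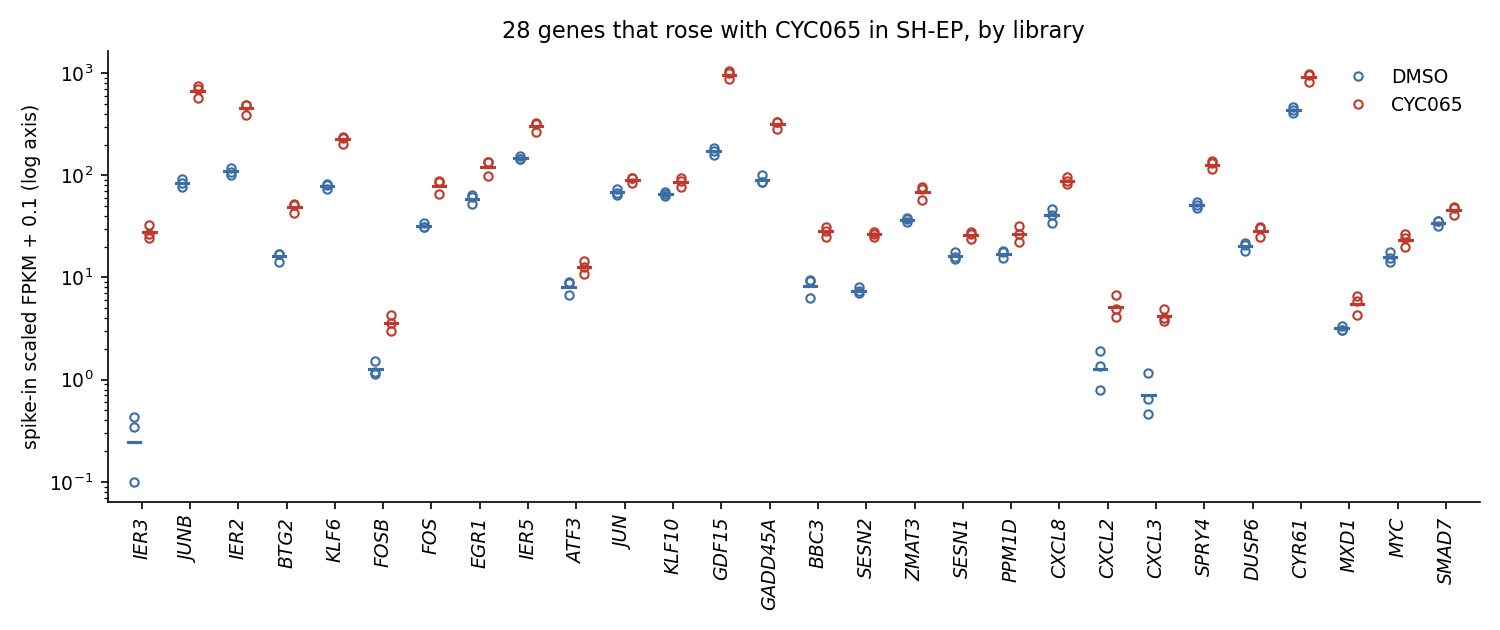
Spike-in scaled FPKM plus 0.1 (log axis) of 28 genes that rose in parental SH-EP, 27 of them from the fixed lists and GDF15, with 1 circle per library (blue, DMSO; red, CYC065; 3 each) and a bar at the geometric mean. JUNB, GDF15, and GADD45A are set apart by several-fold, whereas the circles of JUN and KLF10 lie close together.

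Targets of p53 were the second group with many risen members. These genes answer DNA damage and nucleolar stress, and their products arrest the cell cycle, promote apoptosis, or buffer oxidative stress. Of 25 tested members 7 rose and 12 fell, against 0.907% and 75.7% of all genes, and the list median was -0.30. The count of risen members was 7 without any 1 library. GADD45A, a stress-induced growth arrest protein at chr1:68150884-68154017, was at 31.4, 28.1, and 26.3 FPKM in DMSO and 231, 230, and 245 FPKM in CYC065, a scaled change of 1.79 (SE 0.20, adjusted p = 7.17e-09). BBC3, which encodes the proapoptotic BH3 protein PUMA, went from 2.91, 2.97, and 1.90 FPKM to 21.8, 19.9, and 21.4 FPKM, a scaled change of 1.78 (SE 0.24, adjusted p = 1.56e-07). SESN2, a stress sensor that restrains mTORC1 and that ATF4 also induces, went from 2.50, 2.26, and 2.19 FPKM to 18.9, 19.5, and 21.1 FPKM, a scaled change of 1.83 (SE 0.21, adjusted p = 1.37e-08). The CYC065 libraries of these 3 genes lay above all DMSO libraries. BTG2, ZMAT3, SESN1, and PPM1D rose by 1.59, 0.89, 0.69, and 0.64. The textbook p53 targets CDKN1A, the p21 inhibitor of CDK2, and MDM2, the ligase that degrades p53, did not pass. CDKN1A was at 66.7, 71.5, and 68.0 FPKM in DMSO and 164, 158, and 168 FPKM in CYC065, which came to a scaled change of -0.00 (SE 0.18, adjusted p = 0.989) and a rise of 1.25 as deposited. Its scaled libraries overlapped, at 219 ± 4.25 and 219 ± 19.6 scaled FPKM (mean ± SD, n = 3 each). MDM2 was at 0.02 after scaling and rose by 1.26 as deposited. BAX fell by 0.53, FAS by 1.16, PHLDA3 by 2.12, and XPC, a DNA damage recognition protein, by 2.85. GDF15, a secreted stress cytokine at chr19:18485541-18499986 that is not in the list and was picked after its value was seen, went from 57.7, 51.8, and 52.1 FPKM to 705, 725, and 741 FPKM, a scaled change of 2.50 (SE 0.21, adjusted p = 2.75e-11). It was the most abundant protein-coding mRNA of CYC065-treated cells among those that rose by more than 2 in log2.

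The chemokine genes CXCL2, CXCL3, and CXCL8 rose, and the NF-kB subunits RELA, RELB, and NFKB2 fell. Of 17 tested members of the NF-kB list 4 (23.5%) rose and 6 (35.3%) fell, against 0.907% and 75.7% of all genes. The cytokine and adhesion genes CCL2, IL6, LIF, and ICAM1 did not pass, at -0.84, -0.62, -0.43, and -0.23. CXCL8, the chemokine IL-8 at chr4:74606236-74609433, went from 12.8, 11.2, and 14.3 FPKM to 67.0, 61.3, and 69.7 FPKM, a scaled change of 1.12 (SE 0.22, adjusted p = 4.62e-05). CXCL2 and CXCL3, its neighbours on chromosome 4, rose by 2.02 and 2.58 from under 0.6 FPKM. Both passed the filter only through groups where they were higher. They are close in sequence to each other and to CXCL1, so reads may be shared among them. TNFAIP3, a feedback inhibitor of NF-kB, rose by 0.66 with overlapping scaled groups and lost its call without the first or second CYC065 library or the second or the third DMSO library. The subunits RELA (-2.44), RELB (-2.57), and NFKB2 (-1.57) fell, and the feedback inhibitor NFKBIA was at 0.01. Outside the list, NFKBIZ, a nuclear regulator of NF-kB, rose by 0.79 (adjusted p = 0.00304). CSF2, which encodes GM-CSF, was at 0.138, 0.704, and 1.09 FPKM in DMSO and 7.95, 7.26, and 12.2 FPKM in CYC065, a scaled change of 2.86 (SE 0.74, adjusted p = 0.00107). TNF was listed at 0 in the 3 DMSO libraries and at 2.83, 2.30, and 3.0 FPKM in CYC065, so no fold is given.

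The lists of MAPK feedback regulators, the YAP and TEAD pathway, and TGF-β and BMP targets each had 1 or 2 members that rose. Over all tested genes 0.907% rose and 75.7% fell, with a median of -1.06. In the MAPK list 2 of 13 rose and 8 fell. SPRY4, an inhibitor of RAS and ERK signalling at chr5:141689992-141706020, went from 16.9, 15.8, and 15.4 FPKM to 96.0, 91.2, and 97.4 FPKM, a scaled change of 1.31 (SE 0.19, adjusted p = 8.94e-07). DUSP6, an ERK phosphatase, rose by 0.51 and lost its call without the second DMSO library (adjusted p = 0.0569), whereas the related DUSP10 and SPRY1 fell by 4.13 and 2.93. In the YAP and TEAD list 1 of 21 rose and 19 fell, with a median of -1.25. The gene that rose was CYR61, a secreted matricellular protein at chr1:86046444-86050272. It was at 146, 142, and 124 FPKM in DMSO and 691, 662, and 693 FPKM in CYC065, with no overlap on either scale and a scaled change of 1.06 (SE 0.19, adjusted p = 1.38e-05). CTGF, its close relative and like it a classical YAP target, was at 115, 112, and 100 FPKM in DMSO and 245, 234, and 227 FPKM in CYC065. After scaling its groups overlapped (-0.14, SE 0.20, adjusted p = 0.511), and as deposited it rose by 1.11. The pathway components YAP1 (-0.88), WWTR1 (-1.13), TEAD1 (-1.43), and AJUBA (-3.32) all fell, as did most tested genes. Of 15 TGF-β and BMP targets 13 fell, led by ID4 (-3.79), and SMAD7, the inhibitory SMAD, rose by 0.42, a call lost without the first or second CYC065 or the second DMSO library.

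NUAK2, an AMPK-related kinase that is also a YAP target, was among the 10 genes with the largest rise when small RNAs, genes under 5 FPKM in the higher group, and genes with overlapping groups were left out. It was at 4.06, 3.33, and 3.82 FPKM in DMSO and 58.5, 52.9, and 62.4 FPKM in CYC065, and the lowest treated library was over every untreated one. Its scaled change was 2.70 (SE 0.19, adjusted p = 1.07e-12). The promoters of NUAK2 (chr1:205321746-205321845 of GRCh38.p14, minus strand) and CTGF (chr6:131951373-131951552, minus strand, named CCN2 in RefSeq) are printed because both YAP targets hold both elements, with scaled changes of 2.70 and -0.14 whose difference was not tested. Capitals mark GGAATG and TATAAA, which stands in NUAK2 on the opposite strand as TTTATA.
NUAK2: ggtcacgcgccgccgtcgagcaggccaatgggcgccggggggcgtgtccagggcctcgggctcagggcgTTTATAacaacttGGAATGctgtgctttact
CTGF: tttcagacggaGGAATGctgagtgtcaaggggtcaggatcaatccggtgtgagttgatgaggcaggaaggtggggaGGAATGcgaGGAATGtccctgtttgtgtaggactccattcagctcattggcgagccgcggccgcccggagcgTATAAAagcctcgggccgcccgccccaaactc

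GGAATG starts 169, 104, and 95 bases before the start site of CTGF and 18 bases before that of NUAK2, which holds another copy on the opposite strand 197 bases before it. The motif was in 8 of the 71 risen promoters (11.3%) and in 13.2% of those of all tested genes.

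EID3, HSPA2, and PVRL4, also among the 10 with the largest rise under the limits given for NUAK2, were under 1 FPKM in every DMSO library. EID3, a subunit of the SMC5/6 complex encoded by 1 exon at chr12:104697517-104698983, went from 0.317, 0.772, and 0.332 FPKM to 21.6, 21.7, and 21.2 FPKM, a scaled change of 4.28 (SE 0.27, adjusted p = 1.3e-13). HSPA2, an HSP70 protein of the testis with 1 exon at chr14:65002623-65012891, went from 0.126, 0.127, and 0.0822 FPKM to 5.84, 5.82, and 5.06 FPKM, a scaled change of 4.07 (SE 0.56, adjusted p = 3.26e-07). PVRL4, the adhesion protein nectin-4, went from 0.0732, 0.0494, and 0.288 FPKM to 5.01, 4.83, and 6.01 FPKM, a scaled change of 4.0. Groups that do not overlap were a condition of this choice, and these genes passed the filter only through groups where they were higher. Nothing is therefore read from the separation of their groups. There were 10 risen genes listed at 0 in all 3 DMSO libraries: SPX, CD200R1, TNF, RNF225, FAM71A, the pseudogene TYRO3P, and the snoRNAs SNORD100, SNORA75, SNORA28, and SNORA23. Of the risen genes 5 were readthrough transcripts that share exons with both of their neighbours, NME1-NME2 (5.42 to 64.0 FPKM on average), MINOS1-NBL1, ZFP91-CNTF, NDUFC2-KCTD14, and RNASEK-C17orf49. With RPS14P3, a pseudogene of the ribosomal protein gene RPS14, and CSAG4, a cancer-testis pseudogene, they rest on how reads were split among overlapping or near-identical models and are uncertain.

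The highest values among risen genes came from very short models, whose FPKM is large for few fragments. MIR663A was at 139, 420, and 0 FPKM in DMSO and at 39226, 37186, and 45977 FPKM in CYC065 (10.46, SE 2.48, adjusted p = 0.000465). MIR3648-2 was at 0, 4.59, and 0 FPKM and then at 1277, 1426, and 1324 FPKM (11.75, SE 1.88, adjusted p = 3.29e-06). The groups were wide apart in both, and the host transcript MIR663AHG moved the same way, from 0.239, 0.243, and 0.104 FPKM to 47.8, 53.4, and 42.0 FPKM (6.53, SE 0.45, adjusted p = 1.12e-12). MIR4800 fell from 35.6, 87.8, and 68.2 FPKM to 0.0805, 0, and 0 FPKM. The libraries were made from poly(A) RNA, so these values are fragments over the gene and not the mature microRNA. The mature sequences are printed for their base composition, with the seed, bases 2 to 8, in capitals. They are those of RefSeq, at chr20:26208243-26208264 (minus strand), chr21:8987026-8987046 (plus strand), and chr4:2250091-2250109 (minus strand) of GRCh38.p14.
hsa-miR-663a: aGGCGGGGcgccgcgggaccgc
hsa-miR-3648: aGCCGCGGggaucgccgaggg
hsa-miR-4800-3p: cAUCCGUCcgucuguccac

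G and C make up 90.9% of miR-663a, 81% of miR-3648, and 63.2% of miR-4800-3p, and the 3 seeds differ. Both MIR663A and MIR3648-2 have near-identical copies, so the assignment of their fragments is uncertain. Genes with MIR symbols, host transcripts included, took 0.53% to 0.98% of the summed FPKM in DMSO and 5.67% to 6.80% in CYC065. Of 125 such genes tested 5 (4%) rose and 9 (7.2%) fell, against 0.907% and 75.7% of all genes. The filter used all 30 libraries, and the median DMSO level of the 125 was 0 FPKM. Many of them could therefore not fall in SH-EP, and their shares are not comparable with those of all genes. In a fit of the SH-EP libraries alone 5 rose and 10 fell of 72, with a median of -1.66. Those that rose in the fit of all libraries were MIR663A, MIR3648-2, and the host transcripts MIR663AHG, MIR100HG, and MIR4435-2HG. Without the first, the second, or the third CYC065 library 11, 9, and 10 rose, and 17 fell without the second DMSO library. Of 161 small nucleolar and Cajal body RNAs, 4 rose and 17 fell, and in a fit of the SH-EP libraries alone 8 rose and 32 fell of 117. SNORD83B, at 46.2, 105, and 60.5 FPKM in DMSO, was listed at 0 in the 3 CYC065 libraries, and SNORD100, at 0 in DMSO, was at 210, 186, and 533 FPKM in CYC065, a call lost without the third CYC065 library (adjusted p = 0.0528).

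CDK9, the kinase targeted, fell, as did most of its list. CDK9 (chr9:130547958-130553071) was at 18.8, 18.5, and 16.9 FPKM in DMSO and 11.9, 12.1, and 11 FPKM in CYC065. Treated libraries lay below untreated ones on both scales, and CDK9 fell by 1.87 after scaling (SE 0.20, adjusted p = 2.92e-09). CCNT1, its cyclin T1 partner, was at 11.8, 11.7, and 11.6 FPKM and then at 12.3, 13.6, and 13.8 FPKM, which after scaling was a fall of 1.07 (adjusted p = 3.21e-06) and as deposited did not pass (0.17, adjusted p = 0.0795). Of 20 tested members of the P-TEFb list 17 (85%) fell and 0 rose, with a median of -1.22, against 75.7% and -1.06 over all genes. The deepest falls were in the 7SK inhibitory complex. MEPCE, the 7SK capping enzyme at chr7:100025945-100031749, was at 45.0, 47.1, and 47.8 FPKM in DMSO and 4.30, 3.55, and 3.22 FPKM in CYC065 (-4.89, SE 0.22, adjusted p = 5.76e-16). HEXIM1 went from 10.1, 10.7, and 11.2 FPKM to 3.74, 3.26, and 3.96 FPKM (-2.78, adjusted p = 1.19e-13), and HEXIM2 fell by 4.67. Among the 3 members that did not pass were CCNT2, which encodes cyclin T2, and the elongation factor ELL, at -0.05 and 0.47, and both rose as deposited.

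Of 13 other transcriptional CDKs and their partners 12 (92.3%) fell and 0 rose, with a median of -0.89. Over all genes 75.7% fell and 0.907% rose, with a median of -1.06. CDK7, the kinase of TFIIH, was at 19.5, 19.6, and 20.5 FPKM in DMSO and 3.64, 3.54, and 3.36 FPKM in CYC065 (-3.72, SE 0.22, adjusted p = 6.77e-14). CDK8, CDK12, and CDK13 fell by 3.14, 2.91, and 2.71. The related kinases CDK19, CDK11A, and CDK11B fell by 0.82, 0.76, and 0.92, the partners CCNH, MNAT1, CCNC, CCNL1, and CCNL2 fell by 0.86, 0.90, 0.76, 0.52, and 0.89, and each of these 8 rose as deposited. CCNK, the cyclin of CDK12 and CDK13, was at -0.18 and did not pass. Of the 12 RNA polymerase II subunits 7 (58.3%) fell, with a median of -0.48. POLR2A, which carries the phosphorylated tail, was at 33.2, 32.9, and 30.7 FPKM and then at 27.4, 27.1, and 27.8 FPKM (-1.48, adjusted p = 2.62e-07), and the small subunits POLR2J, POLR2L, POLR2F, POLR2K, and POLR2I did not pass. CDK2 was at 38.0, 38.8, and 38.1 FPKM in DMSO and 55.1, 56.3, and 61.0 FPKM in CYC065. Its groups were apart in opposite directions on the 2 scales, with a fall of 0.67 after scaling (adjusted p = 0.00262) and a rise of 0.58 as deposited. Of 21 tested G1/S regulators 18 (85.7%) fell, with a median of -1.03. The largest fall was that of cyclin E2, CCNE2, at 15.7, 14.8, and 15.3 FPKM in DMSO and 1.35, 1.12, and 1.46 FPKM in CYC065 (-4.73, adjusted p = 2.89e-16). CDK6, E2F1, and CDKN1A did not pass.

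MYC, the proto-oncogene TF with a very unstable mRNA, rose by a margin that depended on single libraries. It was at 5.51, 4.64, and 4.68 FPKM in DMSO and 18.6, 16.7, and 17 FPKM in CYC065, with all treated libraries above the untreated ones on both scales. The scaled change of 0.57 (SE 0.22, adjusted p = 0.0244) was near the threshold and lost the call without the first CYC065 library (0.48, adjusted p = 0.0912), the second CYC065 library (0.54, adjusted p = 0.058), the second DMSO library (0.49, adjusted p = 0.0831), or the third DMSO library (0.55, adjusted p = 0.0571), and as deposited it rose by 1.80. MXD1, which competes with MYC for their shared partner MAX, rose by 0.79 from about 1 FPKM. Of the 11 tested members of the network 7 (63.6%) fell, against 75.7% of all genes, among them MAX itself (-1.64), MNT (-2.63), and MGA (-4.16). The 11 include MYCN, which was listed at 0 FPKM in every SH-EP library and so could not fall.

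Among regulators of apoptosis, the inhibitor MCL1, known for its short-lived mRNA and protein, was at 97.7, 97.4, and 95.5 FPKM in DMSO and 120, 121, and 115 FPKM in CYC065. It fell by 0.96 after scaling (SE 0.19, adjusted p = 5.39e-05) and rose by 0.29 as deposited, so its scaled fall was close to the median of all genes. Of 16 tested members of the list 12 (75%) fell, against 75.7% of all genes, and 2 rose, BBC3 and BIRC3. The inhibitors BCL2L1 and BCL2 fell by 1.98 and 2.45, and the promoters of apoptosis BCL2L11 and BAK1 fell by 2.95 and 3.08. FADD, the death receptor adaptor, was at 21.6, 22.6, and 18.6 FPKM in DMSO and 0.374, 0.939, and 1.04 FPKM in CYC065 and was among the 10 genes with the largest falls under the limits given for NUAK2 (-5.96, SE 0.26, adjusted p = 5.76e-16).

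The TFs that define cell identity had lower medians than all genes. The mesenchymal state of NB is held by TFs such as PRRX1, SNAI2, and the TWIST proteins, which act with AP-1 factors at enhancers. Of 19 tested members of the mesenchymal TF list 16 (84.2%) fell, against 75.7% of all genes, and 0 rose. The list median was -1.91 against -1.06, and 7 (36.8%) fell at least 4-fold, against 22.8% of all genes. PRRX1 (chr1:170631869-170708562) was at 109, 107, and 117 FPKM in DMSO and 68.3, 70.0, and 71.7 FPKM in CYC065 (-1.92, SE 0.20, adjusted p = 1.91e-09). SNAI2 (chr8:49830157-49834299) was at 20.5, 21.9, and 21.6 FPKM and then at 9.15, 8.50, and 10.0 FPKM (-2.45, SE 0.20, adjusted p = 2.61e-11). TWIST1 went from 20.5, 23.3, and 23.9 FPKM to 3.80, 4.24, and 4.19 FPKM (-3.69, adjusted p = 1.54e-13). The treated libraries of all 3 lay below the untreated ones on both scales. The 3 members that did not pass were the AP-1 factors FOSL1 and FOSL2 and STAT3, at -0.21, -0.17, and -0.23.

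SH-EP also expresses a few TFs of the adrenergic state, though 11 of the 18 listed were under the filter, PHOX2A and HAND1 among them. All 7 that were tested fell, each at least 4-fold, with a median of -2.54. Over all tested genes 22.8% fell at least 4-fold, with a median of -1.06. HAND2 (chr4:174446120-174451380), a TF of sympathetic neuron development, was at 78.0, 83.9, and 83.4 FPKM in DMSO and 27.7, 31.1, and 28.9 FPKM in CYC065 (-2.73, SE 0.19, adjusted p = 1.6e-12). TBX2, the member with the highest DMSO level, went from 112, 110, and 105 FPKM to 27.3, 27.9, and 29.99 FPKM (-3.19, adjusted p = 9.29e-14). GATA2 and GATA3 fell by 2.54 and 2.08. The lists of mesenchymal and adrenergic TFs differ in size and DMSO level, and their difference was not tested.

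By their medians, the lists of structural and housekeeping transcripts kept most of their scaled level, and the half-lives of these mRNAs were not measured here. Over all tested genes 75.7% fell, with a median of -1.06. Of 78 cytosolic ribosomal protein genes 1 fell, RPL13A (-0.57, adjusted p = 0.00412), 0 rose, and the median was -0.17. All 78 rose as deposited, and they took 15.4% to 15.5% of the summed FPKM in DMSO and 18.8% to 19.1% in CYC065. RPS27, the highest of them, was at 3088, 3014, and 3192 FPKM and then at 7215, 6902, and 7096 FPKM, with overlapping groups after scaling (-0.06). Of 23 collagens and other matrix proteins 7 fell, with a median of -0.30, and without the third CYC065 library 2 fell. COL1A1 was at 673, 646, and 594 FPKM in DMSO and 1062, 1110, and 1024 FPKM in CYC065 and fell by 0.51 after scaling (adjusted p = 0.0378), and VIM, the mesenchymal intermediate filament at 2523, 2540, and 2425 FPKM, did not pass (-0.38). THBS1, an inhibitor of angiogenesis, fell by 1.49. Of 39 nuclear-encoded respiratory chain subunits 12 fell (6 without the third CYC065 library), with a median of -0.31. Among ubiquitously used genes 6 of 14 fell (3 without the third CYC065 library), GAPDH was at -0.14 and ACTB at -0.31, and the basal factor TBP fell by 2.86. In a fit of the SH-EP libraries alone 17 of the 78 ribosomal protein genes, 25 of the 39 respiratory chain subunits, and 12 of the 23 matrix genes fell, so these counts depend on the libraries that set the spread. Over the 100 genes with the highest DMSO level the median was -0.19, and 14 fell, 0 rose, and 86 did not pass.

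Replication-dependent histone genes, whose mRNAs have no poly(A) tail and so enter such libraries only in part, had a median of -0.06, of which 3 of 44 fell and 1 rose (8 and 4 of 31 in the fit of SH-EP alone). The gene that rose, HIST1H3B, was at 1.79, 0, and 0 FPKM and then at 2.87, 7.32, and 1.83 FPKM, with groups that overlapped after scaling, and histone genes of 1 family are near-identical, so it is uncertain. RPPH1, the RNA of RNase P and a polymerase III transcript, rose by 2.50 from 6.35, 0.599, and 3.03 FPKM to 29.9, 24.2, and 40.8 FPKM.

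Zinc finger genes named ZNF had a median of -2.64. With a filter at 5 FPKM the median of the 101 left was -1.72, and with a pseudocount of 1 the list median was -2.09, and both were then above that of the adrenergic TFs (-2.64 and -2.41). Most encode KRAB repressors, and many lie in clusters on chromosome 19. Of 360 tested 341 (94.7%) fell and 4 rose, and 249 (69.2%) fell at least 4-fold, against 22.8% of all genes. The 169 on chromosome 19 had a median of -2.86 and the 186 placed elsewhere one of -2.36. ZNF93 (chr19:20011722-20074273), at 3.76, 3.62, and 4.11 FPKM in DMSO and 0.119, 0.109, and 0.189 FPKM in CYC065, fell most (-5.45, SE 0.27, adjusted p = 3.73e-15). Of the 4 that rose, ZNF121 (chr19:9671005-9695180) was at 4.73, 5.2, and 4.80 FPKM and then at 41.2, 41.2, and 43.9 FPKM (1.84, SE 0.27, adjusted p = 1.03e-06). ZNF654 and ZNF211 rose by 1.10 and 0.89, and ZNF267 by 0.47, with its call kept in 1 of 6 leave-one-out fits.

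Genes of cell division and repair fell without exception in 2 lists. All 25 mitotic kinases, cyclins, and spindle genes fell (24 without the third CYC065 library), with a median of -2.07, and all 24 homologous recombination and damage response genes fell, with a median of -1.58. Over all tested genes 75.7% fell, with a median of -1.06. AURKA, the centrosome kinase that stabilizes MYCN protein, was at 64.9, 62, and 63.3 FPKM in DMSO and 5.41, 5.90, and 6.41 FPKM in CYC065 (-4.66, SE 0.19, adjusted p = 2.89e-16). BRCA2 went from 2.99, 3.36, and 3.36 FPKM to 0.414, 0.403, and 0.350 FPKM (-4.07, adjusted p = 8.82e-14). Both were more than 4-fold lower as deposited as well. Of 30 DNA replication genes 28 fell, with a shallower median of -0.93, and of 24 nucleolar and ribosome biogenesis genes 22 fell, with a median of -1.43.

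In the other stress lists 75% to 86.7% of members fell, against 75.7% of all genes. In the ATF4 and unfolded protein list 15 of 19 (78.9%) fell and SESN2 alone rose. DDIT3, the proapoptotic TF CHOP, was at 8.22, 7.06, and 7.72 FPKM in DMSO and 0.535, 0.891, and 0 FPKM in CYC065 (-5.64, SE 0.50, adjusted p = 1.22e-10), and XBP1 and HERPUD1 fell by 4.47 and 4.71. Of 15 heat shock genes 13 (86.7%) fell. HSPA8, the constitutive HSP70 at 1353, 1384, and 1369 FPKM in DMSO, was at 629, 607, and 632 FPKM in CYC065 (-2.39, adjusted p = 3.85e-12), and its partner DNAJB1 fell by 4.31. Of 12 NRF2 targets 9 (75%) fell, and among these OSGIN1, GCLC, and the NRF2 repressor KEAP1 fell by 5.39, 4.48, and 4.18. Cholesterol and fatty acid synthesis genes had a median of -0.63, and 14 of 17 (82.4%) fell. Among splicing regulators 16 of 17 fell, and the kinases CLK4 and CLK2 fell most, by 4.18 and 3.30.

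**Figure D3:**
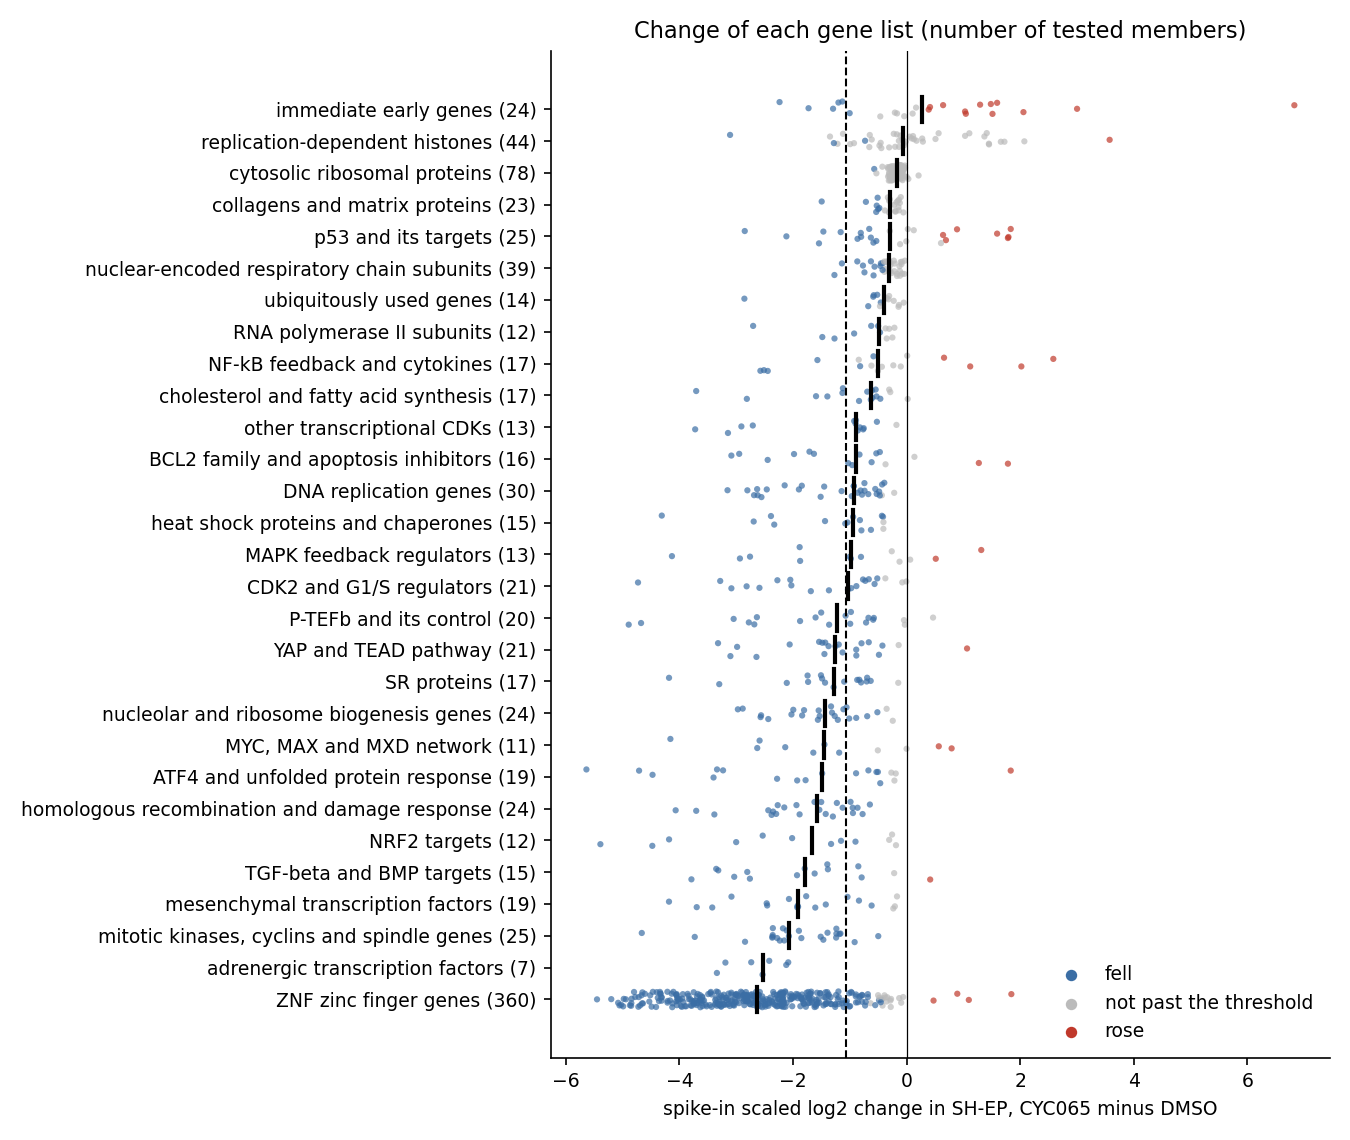
Spike-in scaled log2 change in parental SH-EP (horizontal axis) of each tested member of 29 gene lists with at least 7 tested members, in blue (fell), grey (not past the threshold), or red (rose), with a bar at the list's median. The dashed line is the median of all tested genes, -1.06, and lists run from immediate early genes (0.28) down to ZNF genes (-2.64).

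Under the limits given for NUAK2, several genes with the largest falls went from ordinary levels to near 0. ZBED5, a gene derived from a transposon, was at 15.3, 16.2, and 17.3 FPKM in DMSO and 0.493, 0.169, and 0.391 FPKM in CYC065 (-6.60, SE 0.25, adjusted p = 1.33e-16). METTL18, a histidine methyltransferase at chr1:169761670-169764104, went from 13.5, 13.1, and 13.8 FPKM to 0.728, 0.332, and 0.193 FPKM (-6.17, SE 0.28, adjusted p = 6.9e-16). PPP1R10 (chr6:30568190-30586389 of GRCh37), a nuclear subunit of protein phosphatase 1 that acts in transcription termination and whose promoter is printed above, went from 14.6, 15.0, and 14.8 FPKM to 0.536, 0.293, and 0.510 FPKM (-6.12, SE 0.24, adjusted p = 2.62e-16). In none did any treated library come within 10-fold of an untreated one. EFNA4, a ligand of Eph receptors, and PIGBOS1, a small mitochondrial protein, fell by 6.87 and 6.85, each listed at 0 in 2 of the 3 CYC065 libraries, so the size of their falls rests on the pseudocount. FAM133DP, a pseudogene, was at 10.7, 0.01, and 0.01 FPKM in CYC065, and its fall of 6.03 rested on the last 2 of these.

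The response varied with the level of a gene and with its structure, given here as a description across genes, which are not replicates. By deciles of the DMSO level, the median scaled change was -1.02 in the lowest, -1.59 in the third, and -0.38 in the highest, where the lower limit was 65.3 FPKM. The lowest decile, up to 2.08 FPKM, holds genes under 1 FPKM that passed the filter only through groups where they were higher. Its median is therefore not comparable with the others. By spliced length it went from -0.43 in the shortest decile, up to 1182 bases, to -1.35 in the longest, from 7518 bases. Genes of 1 and 2 exons had medians of -1.35 and -1.63, those of 3 to 5, 6 to 10, and 11 or more exons -1.01, -1.0, and -1.10. Risen genes were also short in exons, since 23 of 89 with a gene model (25.8%) had at most 2, against 7.32% of all tested genes. Genes that fell at least 16-fold had the same property in 65 of 292 (22.3%). JUNB, IER5, and JUN have 1 exon and rose, and HEXIM1, also of 1 exon, fell.

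**Figure D4:**
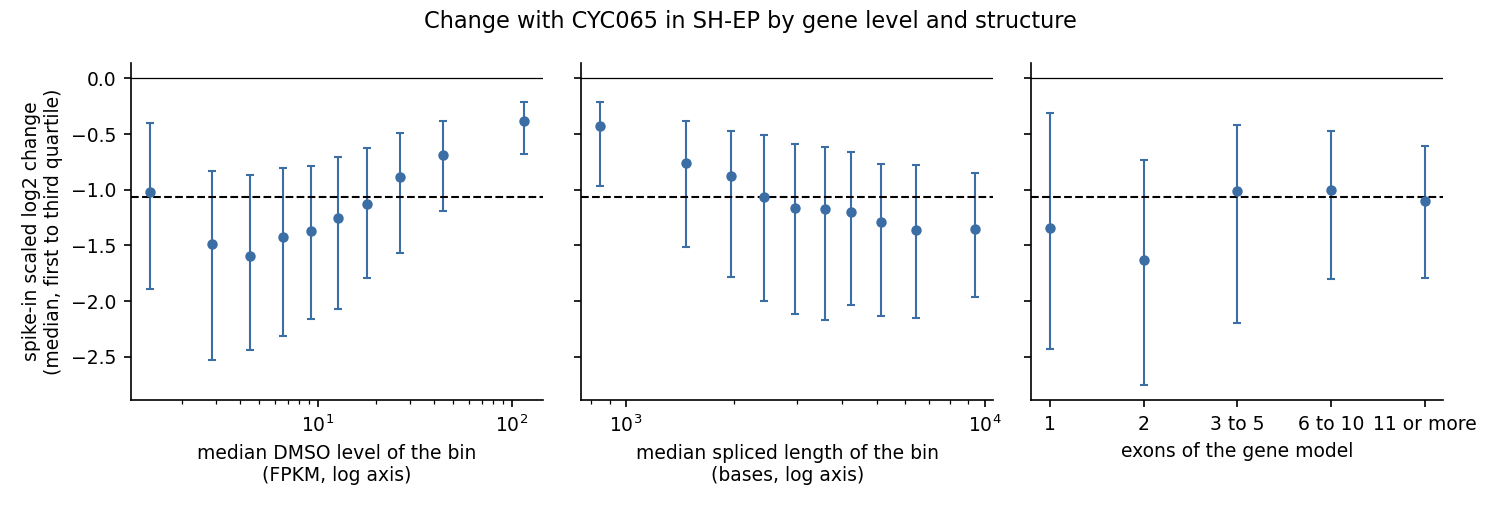
Median spike-in scaled log2 change in parental SH-EP (points) with the range between the lower and upper quartiles (bars), by deciles of DMSO level and of spliced length (log axes) and by number of exons. The dashed line is the median of all tested genes, -1.06, and the change was smallest in the highest decile of DMSO level (-0.38) and in the shortest decile of spliced length (-0.43).

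Whether SH-EP responded as its MYCN-expressing derivatives do was tested as the difference between its change and the mean change of the 4 MYCN lines. After scaling, 223 genes (1.93%) were higher and 483 (4.17%) lower in this sense, 706 of 11575 (6.1%). As deposited 20.3% were higher and 13% lower, together 33.3%. By the labels, each of the 6 SH-EP libraries carries a barcode that a MYCN-line library also carries, and the part of any difference in library handling was not tested. Of the 105 genes that rose in SH-EP, 98 also had a higher mean with CYC065 in the MYCN lines and 7 a lower one, and for 16 the difference passed. The 10 with the stronger rise in SH-EP were IER3, SPX, CD200R1, SESN2, KLF6, FOS, BIRC3, MB21D2, LOC100289561, and MEF2D. SPX and CD200R1 were listed at 0 in all 3 SH-EP DMSO libraries, so the size of their scaled differences rests on the pseudocount. As deposited the limma differences of these genes did not pass (adjusted p = 0.137 and 0.167). IER3 was near the floor in SH-EP DMSO, and its limma difference also depended on the pseudocount. With a pseudocount of 1 it did not pass after scaling (0.78, adjusted p = 0.0828). As deposited with that pseudocount it passed in the opposite direction (-0.78, adjusted p = 0.00758). FOS rose by 1.29 in SH-EP, and its mean change in the MYCN lines was -0.13 (from -0.60 in the WT line to 0.45 in the line with both changes), a difference of 1.43 (SE 0.24, adjusted p = 0.000245). KLF6 changed by 1.51 against 0.44 (difference 1.07, SE 0.20, adjusted p = 0.00114). SESN2 changed by 1.83 against 0.62 (difference 1.21, SE 0.24, adjusted p = 0.00134). In these 3 genes the SH-EP change lay above that of each MYCN line. The 6 with the weaker rise were FAM71A, CXCL8, MYC, ATF3, ARC, and TNFAIP3. MYC changed by 0.57 in SH-EP and by 1.91 on average in the MYCN lines (1.09, 1.96, 1.46, and 3.14), a difference of -1.35 (SE 0.25, adjusted p = 0.00083). ATF3 changed by 0.64 against 2.65 (difference -2.0, SE 0.24, adjusted p = 4.15e-06), and CXCL8 by 1.12 against 2.17 (difference -1.05, SE 0.24, adjusted p = 0.0069).

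Over all tested genes the median difference was 0.20 after scaling and 0.11 as deposited, so the typical change was slightly higher in SH-EP. Among genes that fell, several fell further in SH-EP. METTL18 changed by -6.17 in SH-EP and by -2.84 on average in the MYCN lines (difference -3.33, SE 0.31, adjusted p = 1.06e-07), PPP1R10 by -6.12 against -3.51 (adjusted p = 5.87e-07), and DDIT3 by -5.64 against -2.30 (adjusted p = 0.000268). HEXIM1 fell by 2.78 against 1.43 (difference -1.35, adjusted p = 3.54e-05), SNAI2 by 2.45 against 1.09 (difference -1.36, adjusted p = 0.00023), and KLF4 by 2.24 against 0.33 (difference -1.90, adjusted p = 1.52e-05). Of the 360 ZNF genes 70 had the lower change in SH-EP and 3 the higher, which is 19.4% and 0.833%, against 4.17% and 1.93% of all tested genes. The median DMSO level of the ZNF genes was 3.64 FPKM. With a pseudocount of 1 the lower calls over all genes went from 483 to 974. How the ZNF counts depend on the pseudocount or the scale was not tested. For CDK9 (-0.23, adjusted p = 0.521), CDK2 (0.36, adjusted p = 0.329), MCL1 (-0.00, adjusted p = 0.999), PRRX1 (0.14, adjusted p = 0.709), and HAND2 (-0.08, adjusted p = 0.826) the difference did not pass.

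**Figure D5:**
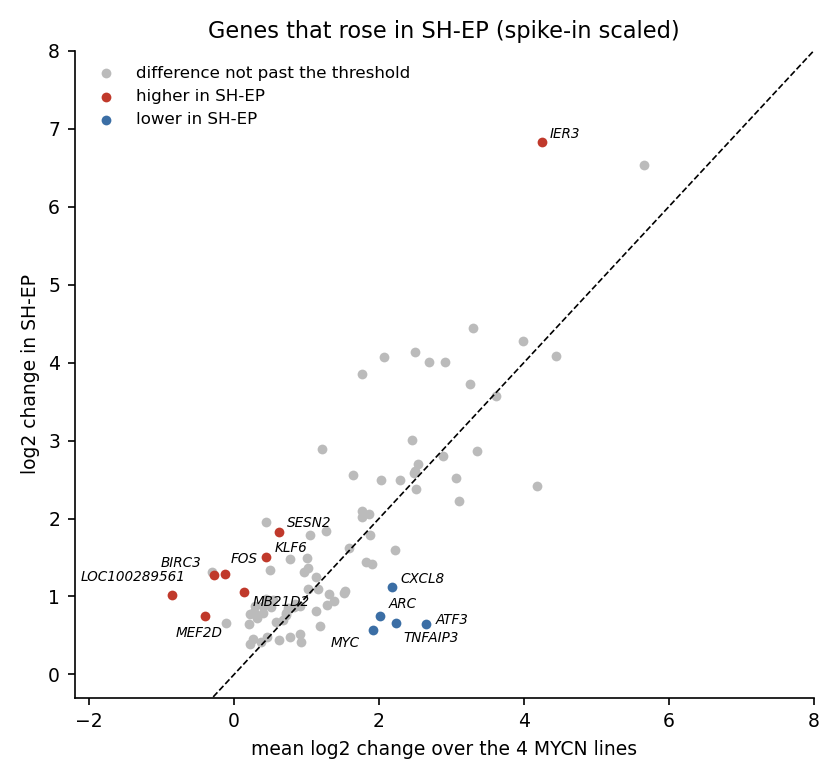
Spike-in scaled log2 change in parental SH-EP (vertical axis) against the mean change of the 4 MYCN lines (horizontal axis) for 93 genes that rose in SH-EP, leaving out small RNAs and genes listed at 0 in SH-EP DMSO, in red or blue where the difference was past the threshold. The dashed line marks equal change, and FOS and IER3 lie above it and MYC and ATF3 below. The position of IER3 depends on the pseudocount.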

How the data were processed

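RNA-Seq of 30 libraries (3 per line and treatment) was analysed, 6 of them from parental SH-EP. Per the study's methods, ERCC spike-ins went in according to cell number and strand-specific libraries were made from poly(A) RNA. The authors aligned reads to hg19 (GRCh37) with HISAT and computed FPKM with Cufflinks. The deposited FPKM are not scaled to the spike-ins and give no depth or counting interval. The annotation is not given in the sources used here. Of the columns, 0 belonged to other samples, and mitochondrial genes were not analysed here.

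For the scaled values, 1 factor per library brought the median log2(FPKM + 0.1) of 55 of the 92 spike-ins, those averaging 1 FPKM or more, to its average across libraries. log2(FPKM + 0.1) was fitted with limma 3.58.1 (R 4.3.3; lmFit, eBayes with trend) over 10 groups and 30 libraries (20 residual degrees of freedom), two-sided, Benjamini-Hochberg over 11575 genes. Changes on this scale are log2 and understate those of low genes. The fit was tested on simulated data. Gene positions are those of a GENCODE annotation lifted to GRCh37, with 96.9% of tested genes matched. Promoter and microRNA sequences are from RefSeq.

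The genes named are the 10 largest rises and falls of at least 5 FPKM in the higher group with groups that do not overlap, small RNAs apart, the 3 largest of each with no such floor, 11 genes chosen by name, the largest rise, largest fall, and highest level of each list, and the 5 largest differences from the MYCN lines each way. Other genes were picked after their values were seen. The members and lists were chosen with earlier results of these data known. Alternatives were other pseudocounts, filters, spike-in choices, scalings, an SH-EP-only fit, and leave-one-out fits.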

Additional observations from a re-analysis of the deposited data

Results flagged for a closer look

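The response of parental SH-EP to CYC065 differed from the mean response of the 4 MYCN lines in 706 genes after spike-in scaling, and the genes with the largest differences are given here as values. XYLT2, a xylosyltransferase of proteoglycan synthesis (chr17:48423487-48440499), was at 18.0, 18.3, and 18.8 FPKM in SH-EP DMSO and 19.7, 20.9, and 19.6 FPKM in SH-EP CYC065. Its scaled change was -1.12 against -3.09 in the MYCN lines, a difference of 1.96 (adjusted p = 3.15e-06). The difference was 2.58 for IER3 (6.83 against 4.25, adjusted p = 0.000722), but 0.78 (adjusted p = 0.0828) after scaling with a pseudocount of 1, where it did not pass. As deposited with that pseudocount it was -0.78 and passed in the opposite direction (adjusted p = 0.00758). LOC100289561 differed by 1.87 (adjusted p = 0.000565), and its scaled SH-EP groups overlapped. NR1D1, the circadian repressor REV-ERBα, was at 3.48, 4.69, and 4.06 FPKM and then at 12.9, 11.4, and 11.9 FPKM in SH-EP and differed by 1.60 (0.32 against -1.28, adjusted p = 0.00276). SELENBP1 differed by 1.48 (adjusted p = 0.0403) at under 0.5 FPKM in each SH-EP library, and did not pass when centred (adjusted p = 0.0572), with the mean of the spike-ins (adjusted p = 0.0885), with spike-ins of at least 50 FPKM (adjusted p = 0.102), or in 5 of 6 leave-one-out fits (highest adjusted p = 0.197, without the first CYC065 library), all but that without the second CYC065 library. RNF139-AS1 differed by -4.12 (-2.06 against 2.07, adjusted p = 0.00942), and in SH-EP CYC065 it was at 2.22, 0.311, and 0.270 FPKM. Without the third CYC065 library it did not pass (-3.56, adjusted p = 0.0502). The snoRNAs SNORA1 and SNORA25 differed by -10.5 (adjusted p = 0.022) and -9.71 (adjusted p = 0.00681), and each was listed at 0 in 2 of the 3 SH-EP CYC065 libraries. SNORA1 did not pass without the first or the third CYC065 library (adjusted p = 0.0997 and 0.0857) or without the first or the third DMSO library (adjusted p = 0.0672 and 0.0661). SNORA26 and SNORA40 were listed at 0 in all 3, so no fold is given.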

How the results depend on the processing

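No paired analysis was possible because the columns are numbered 0 to 2 and the labels 1 to 3, which leaves unknown which column is which labelled replicate. The median change in SH-EP was -1.06 after scaling and -0.77 with no filter on low values. As deposited it was 0.15, and it was 0.32 with a filter at 5 FPKM, 0 with no filter, and 0.129 with a pseudocount of 1. The number of genes that rose after scaling was 105, and 290 with no filter. The share of higher calls was 1.18% after scaling, 56.0% as deposited, and 61.8% with libraries centred on their median. Genes that differed from the MYCN lines were 706, and they were 400 with a filter at 5 FPKM, 1113 with no filter, 1139 with a pseudocount of 1, 250 with spike-ins of at least 50 FPKM, 3512 centred, 3854 as deposited, and 425 to 583 without any 1 SH-EP library (425, 445, and 433 without the first, the second, and the third DMSO library), so this count depends on the settings. Centring, which shifts all genes by the median, reversed CCNT1 (0.31), CDK2 (0.72), CTGF (1.25), and MCL1 (0.43), and the difference for IER3 as deposited reversed to -0.78 with a pseudocount of 1. The call of MYC was also lost with the mean of the spike-ins (0.51, adjusted p = 0.0925). Alternatives gave the same direction and side of the threshold in 1094 cases over the named genes, a weaker result in 55, and a stronger one in 4. List counts without each library were added after seeing the data. The shallower CYC065 libraries and low genes limit the precision, and the cause of these dependences was not tested.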
